A study of Homo sapiens with 6 samples.

Results

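The 10 genes described here act in the making, storage and breakdown of triglyceride: the lipins LPIN1, LPIN2 and LPIN3, the acyltransferases AGPAT2, DGAT1 and DGAT2, the droplet coat proteins PLIN2 and PLIN3, the lipase PNPLA2 and its inhibitor HILPDA. They were picked by symbol, with results of the same comparison already known, from the 61228 genes in a count table of RNA-seq on MDA-MB-231, a human breast cancer cell line of the basal, triple-negative type. The KO group, whose treatment label gives knockout of ETV1, ETV4 and ETV5 and whose titles name ETV4 alone, had 3 libraries. The control group, nucleofected with Cas9 and control guide RNAs, also had 3. ETV1, ETV4 and ETV5 encode ETS transcription factors, which bind DNA at a GGAA core. Cells of both groups had been nucleofected and grown in 3D droplets of collagen I, at either of 2 collagen concentrations that the labels do not tie to samples, and were released with collagenase before polyadenylated RNA was sequenced. The labels do not say whether the KO cells are 1 clone, or whether libraries came from separate cultures. The spread between libraries may therefore be technical. All 3 KO libraries carry the tag c39 in their names, which the labels do not explain. If it marks 1 clone, the knockout and traits of that clone cannot be told apart.

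Triglyceride is built on glycerol phosphate by stepwise addition of fatty acids. Acyltransferases such as AGPAT2 make phosphatidate, the lipins remove its phosphate to give diacylglycerol, and the DGAT enzymes add the last fatty acid. Diacylglycerol is also the precursor of the membrane lipids phosphatidylcholine and phosphatidylethanolamine, so the lipin step lies just before storage and the synthesis of these membrane lipids part. Finished triglyceride is kept in droplets coated by perilipins and is released again by lipases, the first of which is PNPLA2, also called ATGL.

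Libraries held between 18042601 and 23232770 counts, of which 2.65% to 4.26% were mitochondrial, and 14704 genes were tested. A count of 0 allows up to 3 counts, worth 0.127 to 0.165 CPM (read counts scaled to a common library size) depending on the library. That limit covers counting error only. ETV1 averaged 142 ± 11.1 CPM in KO cells and 223 ± 13.5 CPM in control cells, ETV4 63.7 ± 2.03 CPM in KO cells and 93.9 ± 2.11 CPM in control cells, and ETV5 113 ± 1.23 CPM in KO cells and 112 ± 4.77 CPM in control cells (SD, n = 3 each). By edgeR, ETV1 (adjusted p = 0.00125) and ETV4 (adjusted p = 6.12e-04) were lower in KO cells and ETV5 (adjusted p = 0.932) did not pass; transcript levels do not show how much protein was left after editing. Of the markers of this line, VIM, CD44, CAV1, MSN and AXL were abundant and SPARC was near 0. CD44 (459 to 577 CPM in KO cells, 369 to 442 CPM in control cells) was higher in KO cells without overlap. So was CAV1 (587 to 620 CPM in KO cells, 521 to 562 CPM in control cells). MSN was lower without overlap (1079 to 1275 CPM in KO cells, 1356 to 1570 CPM in control cells), and VIM, AXL and SPARC overlapped. Of the luminal markers KRT8 and ERBB2 were present and ESR1 and PGR had at most 1 count. The summed level of 8 adipocyte markers was 4.51 to 5.19 CPM in KO cells and 5.65 to 7.37 CPM in control cells, with ADIPOQ and LEP at 0 in every library. The 5 fibroblast markers summed to 0.055 to 0.467 CPM in KO cells and 0.189 to 0.595 CPM in control cells. The adipocyte, leukocyte and luminal lists did not overlap between groups, with the adipocyte sum lower in KO cells. The 4 leukocyte markers summed to 1.87 to 2.37 CPM in KO cells and 6.19 to 6.80 CPM in control cells, mostly from LYZ, with CD3E at 0 in every library. The 6 luminal markers summed to 574 to 611 CPM in KO cells and 515 to 548 CPM in control cells, mostly from KRT8. KRT8 and GATA3 were higher in KO cells without overlap. ERBB2 went the other way, at 54.5 to 57.4 CPM in KO cells and 58.1 to 65.0 CPM in control cells. The part of these markers in the results was not tested.

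All 3 lipin transcripts were lower in KO cells than in control cells, and the range of each group lay apart from the other. LPIN1 had 80.9, 72.5 and 81.1 CPM in KO replicates 1 to 3, against 127, 128 and 123 CPM in control replicates 1 to 3. The means were 78.2 ± 4.89 CPM in KO cells and 126 ± 2.75 CPM in control cells (SD, n = 3 each), a level 1.61-fold lower in KO cells (log2 fold change -0.69, SE 0.064). LPIN1 is the phosphatidate phosphatase known from lipin-deficient mice, which have little fat tissue, and it can also act in the nucleus on transcription. The gene lies at chr2:11677595-11827409 on the plus strand (GRCh38, GENCODE). The highest KO library of LPIN1 stood at 0.661 of the lowest control library. In bulk RNA, fewer cells that express a gene and less RNA per cell cannot be told apart.

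LPIN2, the lipin whose loss in people causes an inflammatory bone disease, moved furthest of the 10 genes and lies at chr18:2916994-3013315 on the minus strand. It had 111, 107 and 98.0 CPM in KO replicates 1 to 3, against 205, 198 and 179 CPM in control replicates 1 to 3. The means were 106 ± 6.83 CPM in KO cells and 194 ± 13.9 CPM in control cells (SD, n = 3 each), 1.84-fold lower in KO cells (log2 fold change -0.88, SE 0.076). Counting from the most negative fold change, LPIN2 stood at place 365 of the 14704 genes tested, LPIN1 at place 658 and LPIN3 at place 662. In both groups replicate 3 was the lowest library for LPIN2.

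LPIN3, at chr20:41340920-41360582 on the plus strand, was the lipin with the lowest level. It had 17.6, 12.0 and 17.2 CPM in KO replicates 1 to 3, against 23.5, 26.3 and 25.3 CPM in control replicates 1 to 3. KO replicate 2, with 231 counts, stood below the other KO libraries, and the lowest control library still lay above the highest KO library. The means were 15.6 ± 3.13 CPM in KO cells and 25.0 ± 1.42 CPM in control cells (SD, n = 3 each), 1.61-fold lower in KO cells (log2 fold change -0.68, SE 0.14). Without control replicate 2 the log2 fold change of LPIN3 was -0.65 and no longer past the threshold of the fit over all genes. In the annotation 617 bases, or 13.5%, of LPIN3's exons are shared with EMILIN3 on the opposite strand, which was too low to be tested.

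**Figure D1:**
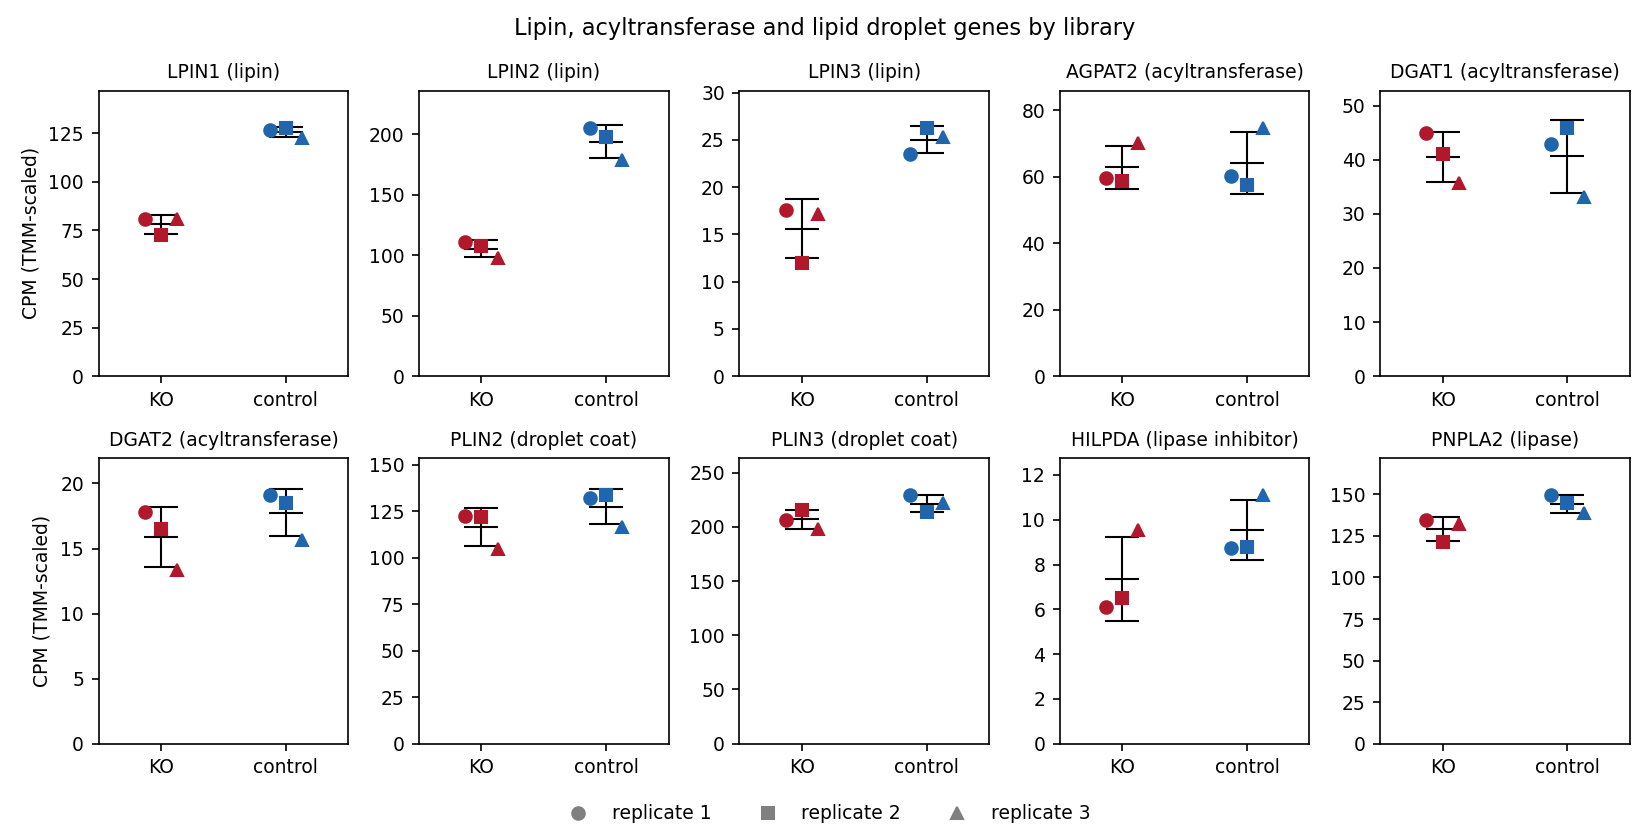
Level of each of the 10 genes in TMM-scaled CPM (y axes from 0) in the 3 KO libraries, left, and the 3 control libraries, right; markers give the replicate number, and bars the mean and SD. The lipins and PNPLA2 show no overlap between groups, as with LPIN2 at 98.0 to 111 CPM in KO cells and 179 to 205 CPM in control cells.

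The sequence before the annotated starts of LPIN1 and LPIN2 is shown, up to the first annotated exon. Any part of it in the lipin levels was not tested. RefSeq (GRCh38.p14) gave windows of 250 bases before the start for 6 of the 10 genes, 9 windows in all; LPIN3, DGAT1, DGAT2 and HILPDA have no entry. Capitals mark the core GGAA or its complement TTCC, the hypoxia-type words ACGTG or GCGTG, and the E-box word CACGTG, all searched on both strands. The word ACGTG lies within CACGTG. The search for GGAA alone was added after the windows had been seen.
LPIN1, chr2:11746382-11746587, plus strand: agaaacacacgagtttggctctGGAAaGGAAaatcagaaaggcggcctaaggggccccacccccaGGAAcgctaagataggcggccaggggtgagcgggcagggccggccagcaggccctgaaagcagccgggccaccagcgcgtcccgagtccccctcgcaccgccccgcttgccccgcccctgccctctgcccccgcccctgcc
LPIN1, chr2:11677294-11677543, plus strand: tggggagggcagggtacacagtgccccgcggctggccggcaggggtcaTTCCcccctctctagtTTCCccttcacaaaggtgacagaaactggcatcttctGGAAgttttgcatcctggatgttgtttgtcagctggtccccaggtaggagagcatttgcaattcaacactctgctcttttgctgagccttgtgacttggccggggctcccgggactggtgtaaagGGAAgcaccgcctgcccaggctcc
LPIN2, chr18:3013316-3013394, minus strand: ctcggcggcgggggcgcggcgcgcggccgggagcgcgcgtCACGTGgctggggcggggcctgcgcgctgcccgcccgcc
The first LPIN1 stretch carried GGAA at -228, -223 and -185 from the start. The second carried it at -149 and -24, with TTCC at -202 and -186. Such a match is common, since 92.7% of 35116 promoter windows of that length hold GGAA on either strand. The longer ETS-type words AGGAAG, held by 28.7% of windows, and CGGAAG, held by 16.5%, were in none of the 9 windows. Of the windows not shown, those of AGPAT2, PNPLA2 and PLIN3 held GGAA or TTCC, the third LPIN1 window held GCGTG and no GGAA, and the other LPIN2 window held none of the words searched. The AGPAT2, PLIN2 and PLIN3 windows held GCGTG too, and the PLIN2 window also held ACGTG. The LPIN2 window that is shown in part held TTCC at -96 and -27, in its exonic part beyond the printed stretch. It carried CACGTG, an E-box of the kind bound by basic helix-loop-helix factors, at -210; 6.35% of windows hold it, and the PLIN2 window held it too. ACGTG is held by 18.5% of windows and GCGTG by 32.2%. The sterol-element word TCACNCCAC, held by 0.883% of windows, was in the PNPLA2 window and in none of the other 8. These matches describe letters in the windows and say nothing of binding.

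The acyltransferases before and after the lipin step lay close together in the groups. AGPAT2, which adds the second fatty acid and whose loss in people causes generalized lipodystrophy, had 59.6, 58.6 and 70.1 CPM in KO replicates 1 to 3, against 60.3, 57.4 and 74.7 CPM in control replicates 1 to 3. The means were 62.8 ± 6.39 CPM in KO cells and 64.1 ± 9.25 CPM in control cells (log2 fold change -0.03, SE 0.11). The libraries of both groups overlapped, with replicate 3 the highest in each.

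DGAT1 and DGAT2 are unrelated proteins that both make triglyceride from diacylglycerol. DGAT1 had 44.9, 41.0 and 35.7 CPM in KO replicates 1 to 3, against 42.9, 45.9 and 33.1 CPM in control replicates 1 to 3. Its means were 40.6 ± 4.62 CPM in KO cells and 40.6 ± 6.70 CPM in control cells (log2 fold change 0.00, SE 0.13), with replicate 3 the lowest in each group. The DGAT1 exons share 139 bases with HSF1, on the opposite strand. They share 444 bases, or 10.7%, with AC233992.1, which is annotated on the same strand as DGAT1. DGAT2 had 17.8, 16.5 and 13.3 CPM in KO replicates 1 to 3, against 19.1, 18.5 and 15.7 CPM in control replicates 1 to 3. Its means were 15.9 ± 2.30 CPM in KO cells and 17.8 ± 1.82 CPM in control cells (log2 fold change -0.16, SE 0.13), and the groups overlapped. An absence of difference is not shown for these 3 enzymes, whose SEs leave room for small changes in either direction.

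The perilipins PLIN2 and PLIN3 are the coat proteins found on droplets of most cells, PLIN2 bound to droplets at all times and PLIN3 moving to them from the cytosol. PLIN2 had 123, 122 and 105 CPM in KO replicates 1 to 3, against 132, 134 and 117 CPM in control replicates 1 to 3. Each KO library lay below the control library of the same number, though the ranges overlapped (116 ± 10.1 CPM in KO cells and 127 ± 9.47 CPM in control cells; log2 fold change -0.13, SE 0.083). PLIN3 had 207, 216 and 198 CPM in KO replicates 1 to 3, against 229, 213 and 222 CPM in control replicates 1 to 3. Its means were 207 ± 8.71 CPM in KO cells and 221 ± 7.93 CPM in control cells (log2 fold change -0.10, SE 0.062). An antisense transcript, AC027319.1, shares 17.8% of the PLIN3 exons.

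PNPLA2 removes the first fatty acid of stored triglyceride, and HILPDA, a small protein induced by low oxygen, binds and inhibits it. PNPLA2 had 135, 121 and 132 CPM in KO replicates 1 to 3, against 149, 145 and 139 CPM in control replicates 1 to 3. The groups did not overlap, but by little, with the highest KO library at 0.969 of the lowest control library (129 ± 7.17 CPM in KO cells and 144 ± 5.26 CPM in control cells; log2 fold change -0.16, SE 0.064). HILPDA had 6.11, 6.49 and 9.52 CPM in KO replicates 1 to 3, against 8.74, 8.78 and 11.1 CPM in control replicates 1 to 3. It was the member with the fewest reads, down to 114 counts in a library, and replicate 3 was the highest of each group (7.37 ± 1.87 CPM in KO cells and 9.54 ± 1.35 CPM in control cells; log2 fold change -0.38, SE 0.19). Without KO replicate 3 its log2 fold change was -0.58 and past the threshold. Without both libraries numbered 3, HILPDA (-0.48) and PNPLA2 (-0.20) were past it. In the annotation, HILPDA shares 8.99% of its exons with AC010655.2 and 8.45% with AC010655.4, both on its own strand. PNPLA2 shares 10.4% of its exons with AP006621.1 on the opposite strand.

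All 10 genes passed the filter on low counts. In the edgeR quasi-likelihood fit over all genes (Benjamini-Hochberg adjustment, threshold 0.05), LPIN1, LPIN2 and LPIN3 were past the threshold and lower in KO cells, 3 of 10. Over all genes tested, 6.42% were lower, 3.28% higher and 9.7% either. No member was higher, and 0 were higher at an unadjusted p under 0.05 or in DESeq2. The groups did not overlap for 4 members, all lower in KO cells, where 16.8% of all genes did not overlap in that direction. As the genes were chosen with this contrast known, these counts are a description, and nothing is read from them. The median log2 fold change was -0.16 over the 10 genes, 9 of which were negative, and 0.00 over all genes tested.

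Replicate 3 deviated alike in both groups over all genes, while replicates 1 and 2 did not separate by number. A fit with the replicate number as a block placed 7 members past the threshold, all lower in KO cells. Over all genes, 16.7% were lower and 17.2% higher in that fit. The 4 added were PLIN2 (log2 fold change -0.13, SE 0.040), PLIN3 (-0.10, SE 0.037), HILPDA (-0.38, SE 0.12) and PNPLA2 (-0.16, SE 0.040). AGPAT2, DGAT1 and DGAT2 were past the threshold in neither fit.

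**Figure D2:**
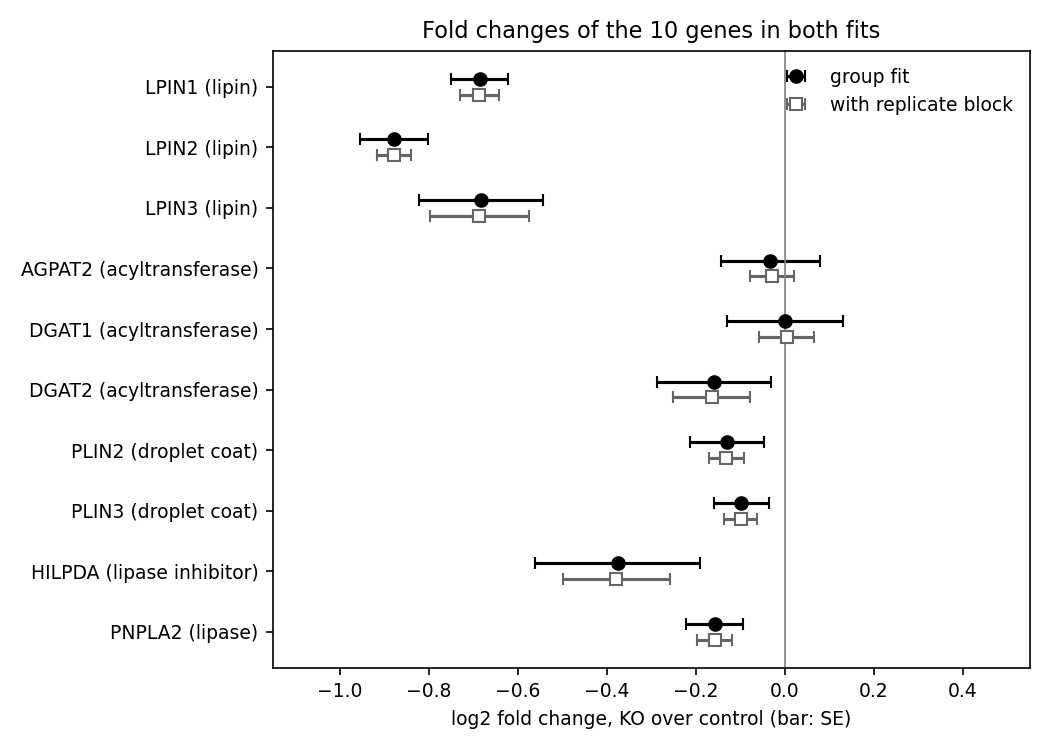
Log2 fold change of each of the 10 genes, KO over control, with bars for the SE; filled circles are the fit on group and open squares the fit with the replicate block. LPIN2, at -0.88, stands furthest left, DGAT1 lies at 0.00, and the SEs are smaller with the block for every gene, as for PLIN2 at 0.083 without it and 0.040 with it.

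The deviations of single libraries from their group mean show what the block takes up. In both groups replicate 3 was the highest library for AGPAT2 and HILPDA and the lowest for LPIN2, DGAT1, DGAT2 and PLIN2. That was 6 of 10 genes, or 60%, where 55.2% of all genes tested had replicate 3 at the same extreme in both groups. For HILPDA, replicate 3 stood 0.39 above the mean log2 CPM of KO cells and 0.22 above that of control cells. DGAT1 in replicate 3 stood 0.18 below the KO mean and 0.28 below the control mean on that scale. LPIN3 did not follow this order, as KO replicate 2 stood 0.36 below its group and control replicate 2 stood 0.07 above. The labels give no date or batch, and the part of replicate number in these values was not tested beyond the blocked fit.

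**Figure D3:**
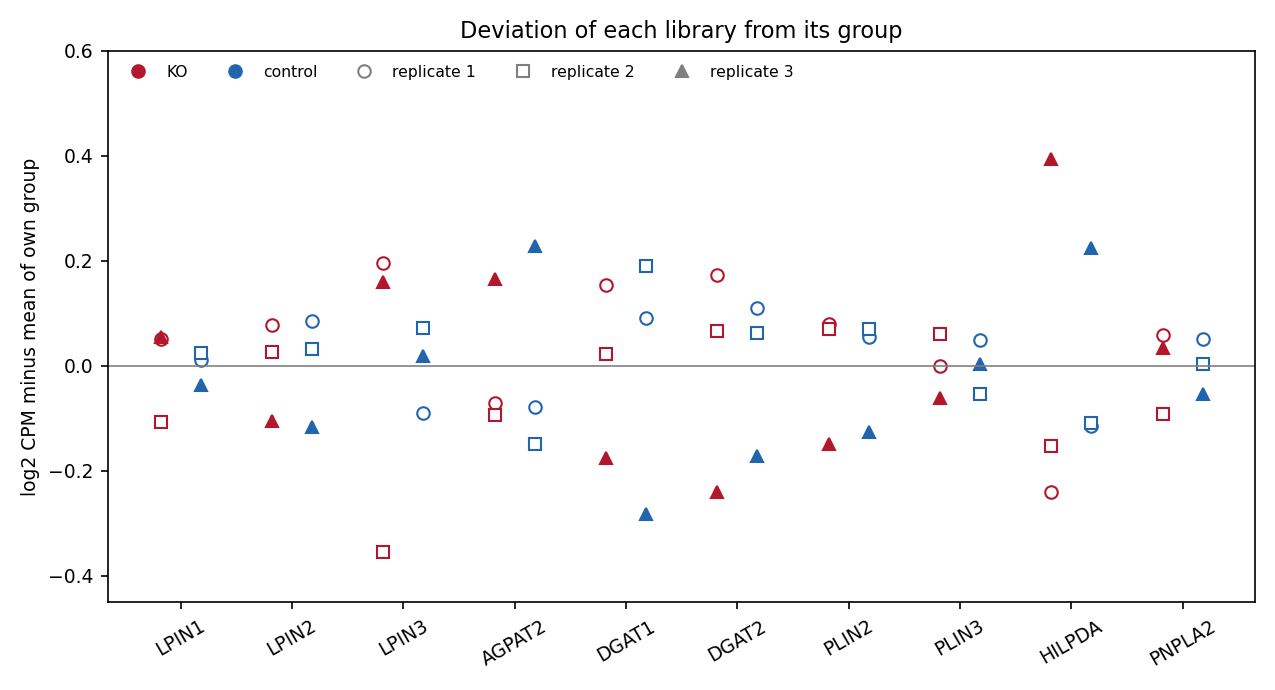
Log2 CPM of each library minus the mean of its own group, for the 10 genes, KO left and control right of each pair; marker shapes give the replicate. Triangles (replicate 3) are the highest or the lowest library in both groups for AGPAT2, DGAT1, DGAT2, PLIN2, HILPDA and LPIN2, with HILPDA at 0.39 in KO cells and 0.22 in control cells.

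To set the genes against each other, CPM was divided by exonic length in kb (all exons of a gene merged). PLIN3 was the most abundant of the 10, at 73.5 CPM per kb in KO cells and 78.7 in control cells. AGPAT2 had 34.9 in KO cells and 35.7 in control cells, and PNPLA2 33.7 in KO cells and 37.6 in control cells, and these 2 overlapped each other in both groups. PLIN2 followed with 22.9 in KO cells and 25.1 in control cells. LPIN2 had 15.5 CPM per kb in KO cells, below every PLIN2 library of that group, and 28.5 in control cells, where its range overlapped that of PLIN2. LPIN1 had 6.59 in KO cells, below DGAT1 at 9.82, and 10.6 in control cells, where it overlapped DGAT1 at 9.83. HILPDA had 3.56 in KO cells and 4.61 in control cells, overlapping LPIN3, which had 3.41 in KO cells and 5.48 in control cells. DGAT2 was the lowest, at 2.01 in KO cells and 2.25 in control cells. With the longest transcript as length, the order changed in part. PLIN2 then came second in both groups, HILPDA lay above LPIN3 in both, and LPIN1 lay above DGAT1 in both, at 13.7 against 10.9 CPM per kb in KO cells and 22.1 against 10.9 in control cells. LPIN2 then lay below PLIN2 in both groups, and PNPLA2 above AGPAT2 in control cells with no overlap.

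**Figure D4:**
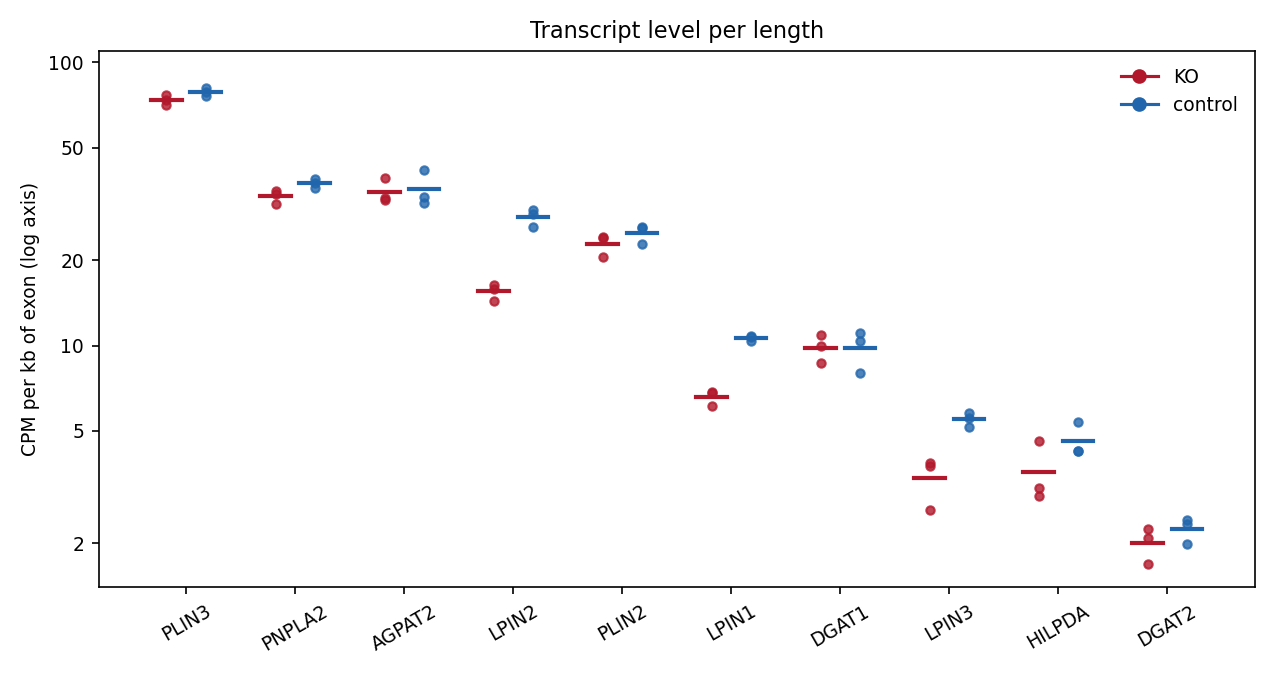
Level per length (CPM per kb of merged exons, log axis) of the 10 genes in KO libraries, left of each pair, and control libraries, right; points are libraries and lines means. LPIN2 lies at 15.5 in KO cells and 28.5 in control cells, while DGAT1 lies at 9.82 in KO cells and 9.83 in control cells.

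Sums over the enzymes of a step describe the same libraries by step. The 3 lipins summed to 25.5 ± 1.34 CPM per kb in KO cells and 44.6 ± 2.14 in control cells, whereas the DGAT sum was 11.8 ± 1.41 in KO cells and 12.1 ± 1.84 in control cells (SD, n = 3 each). The ratio of the lipin sum to the DGAT sum was 2.06, 2.04 and 2.42 in KO replicates 1 to 3, against 3.60, 3.39 and 4.22 in control replicates 1 to 3, with no overlap. LPIN2 made up 60.8% ± 3.38 of the lipin sum in KO cells and 63.9% ± 1.66 in control cells, and these shares overlapped. DGAT1 made up 83.1% ± 0.562 of the DGAT sum in KO cells and 81.3% ± 1.25 in control cells. PLIN3 made up 76.3% ± 1.06 of the sum with PLIN2 in KO cells and 75.9% ± 1.61 in control cells. PNPLA2 over PLIN2, the lipase set against the coat, was 1.48 ± 0.179 in KO cells and 1.50 ± 0.0734 in control cells.

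Other genes of glycerolipid metabolism, in 7 lists of 99 genes, moved in both directions. Of the 78 tested, 10 were lower in KO cells (12.8%, against 6.42% of all genes tested) and 4 higher (5.13%, against 3.28%), with a median log2 fold change of -0.03. As the lists were chosen with earlier results of these data known, these counts and shares are a description, as are those of each list below. With 1 library left out the counts were 6 lower and 1 higher without KO replicate 1, KO replicate 2 or control replicate 2, 10 lower and 5 higher without KO replicate 3, 4 lower and 1 higher without control replicate 1, and 10 lower and 2 higher without control replicate 3. Of the 14 called genes, MGLL, VLDLR, SLC27A1, PLPP3 and SREBF2 stayed past the threshold whichever library was left out. AGPAT4, DDHD2, LIPA, G0S2, PTDSS1, SELENOI and SOAT1 stayed past it in at most 1 of those 6 fits. The replicate block gave 20 lower and 12 higher, where 16.7% of all genes were lower and 17.2% higher.

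Lipolysis held 4 of 9 tested genes that fell, and 0 that rose (1 at an unadjusted p under 0.05, and 0 in DESeq2). MGLL, which splits monoacylglycerol at the end of lipolysis, had 41.8, 40.8 and 31.4 CPM in KO replicates 1 to 3, against 69.3, 66.5 and 56.5 CPM in control replicates 1 to 3. Its log2 fold change was -0.75 (SE 0.12, edgeR adjusted p = 0.00585). G0S2, an inhibitor of PNPLA2, averaged 294 ± 18.8 CPM in KO cells and 350 ± 9.22 CPM in control cells (log2 fold change -0.25, edgeR adjusted p = 0.0462) and is named after its value was seen; the call was lost with RLE size factors. DDHD2, a triglyceride hydrolase of neurons, had a log2 fold change of -0.31 (edgeR adjusted p = 0.0395). LIPA, the lysosomal acid lipase, had one of -0.20 (edgeR adjusted p = 0.0456), a call that was lost with RLE size factors, in DESeq2 and without the filter. ABHD5, the co-activator of PNPLA2, had a log2 fold change of 0.20 (SE 0.079) and did not pass. The list with the replicate block gave 5 lower and 1 higher. It gave 1 lower, MGLL, without KO replicate 1, KO replicate 2 or any 1 of the control replicates, and 1 higher without KO replicate 3.

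Fatty acid uptake and activation had 2 of 11 tested genes lower and 0 higher, with 0 higher also at an unadjusted p under 0.05 and in DESeq2. SLC27A1, a fatty acid transport protein, had 21.6, 19.3 and 25.2 CPM in KO replicates 1 to 3, against 37.3, 37.8 and 39.9 CPM in control replicates 1 to 3 (log2 fold change -0.80, SE 0.099, edgeR adjusted p = 0.00164). VLDLR, a receptor for triglyceride-rich lipoproteins, averaged 29.8 ± 0.95 CPM in KO cells and 44.4 ± 2.05 CPM in control cells (log2 fold change -0.58, SE 0.069, edgeR adjusted p = 0.00136). ACSL3, an acyl-CoA synthetase of growing droplets, had a log2 fold change of -0.21 and did not pass, although its groups did not overlap. The block gave 5 lower in this list.

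In the early acylation list 1 of 11 tested genes was lower, AGPAT4 (log2 fold change -0.38, edgeR adjusted p = 0.0373), and 0 were higher, with 0 at an unadjusted p under 0.05 and in DESeq2 and 2 with the block. Its median log2 fold change was 0.07, and the glycerol phosphate acyltransferases GPAM, GPAT2, GPAT3 and GPAT4 did not pass. Of 8 tested droplet proteins 0 passed in either direction in edgeR or DESeq2, with 1 lower and 0 higher at an unadjusted p under 0.05 and 1 lower with the block. The most abundant of them over all 6 libraries were AUP1 (log2 fold change 0.08, SE 0.062) and RAB18 (0.06, SE 0.061).

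Of the 20 tested genes in the branches of phosphatidate and diacylglycerol, 2 fell and 3 rose, and the block gave 4 lower and 6 higher. Without KO replicate 1, KO replicate 2 or any 1 of the control replicates, 1 gene, PLPP3, was higher. PLPP3, a phosphatase of the cell surface that also removes phosphate from phosphatidate, had 24.1, 25.9 and 23.4 CPM in KO replicates 1 to 3, against 14.4, 14.6 and 13.1 CPM in control replicates 1 to 3. Its log2 fold change was 0.80 (SE 0.087, edgeR adjusted p = 8.06e-04), opposite in sign to the lipins. DGKA, a kinase that turns diacylglycerol back into phosphatidate, averaged 13.5 ± 0.714 CPM in KO cells and 18.8 ± 0.273 CPM in control cells (log2 fold change -0.48, edgeR adjusted p = 0.00945), and did not pass without control replicate 1. PCYT2, of phosphatidylethanolamine synthesis, had a log2 fold change of -0.45 (edgeR adjusted p = 0.0132) and did not pass without KO replicate 2, control replicate 1 or control replicate 2. PTDSS1, which makes phosphatidylserine, had one of 0.42 (edgeR adjusted p = 0.0317). SELENOI, the ethanolamine phosphotransferase, had one of 0.25 (edgeR adjusted p = 0.0430). SOAT1, which esterifies cholesterol for droplets, had one of 0.26 (edgeR adjusted p = 0.0482), 1 of 2 tested sterol ester genes.

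Among 17 tested regulators of the lipins and of lipid genes, 1 fell and 0 rose; at an unadjusted p under 0.05, 4 were lower and 2 higher, and DESeq2 called 1 lower and 1 higher. The block gave 4 lower and 2 higher, the fit without control replicate 3 gave 4 lower, the fit without the filter 3 lower, and the fit without KO replicate 3 1 higher. SREBF2, which encodes the transcription factor SREBP-2 of the cholesterol pathway, had 152, 146 and 140 CPM in KO replicates 1 to 3, against 254, 245 and 226 CPM in control replicates 1 to 3. Its log2 fold change was -0.73 (SE 0.067, edgeR adjusted p = 3.95e-04). CTDNEP1 and CNEP1R1, the phosphatase complex that acts on lipins, had log2 fold changes of 0.07 and -0.01 and did not pass. SREBF1 and HIF1A, with log2 fold changes of -0.21 and 0.23, did not pass.

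**Figure D5:**
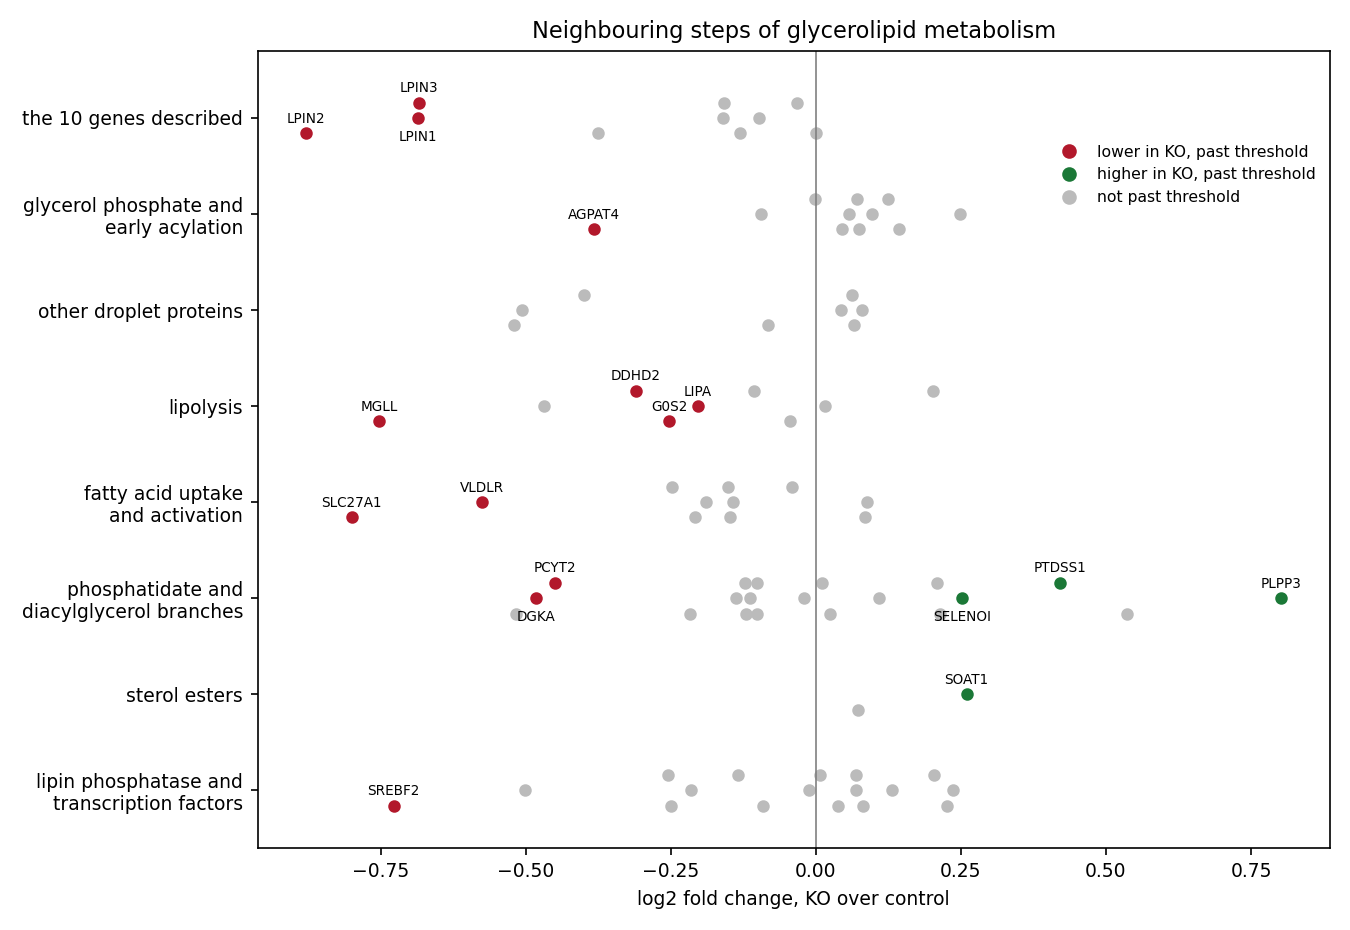
Log2 fold change, KO over control, of each tested gene by list, with the 10 genes described at the top; red points were lower and green points higher in KO cells past an adjusted p of 0.05 (edgeR), and grey points were not past it. The lipins lie between -0.88 and -0.68, SLC27A1 at -0.80, MGLL at -0.75 and SREBF2 at -0.73 on the left, and PLPP3 at 0.80 on the right.

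The genes most like LPIN2 over the 6 libraries, by Pearson's r of log2 CPM among 10374 genes with a mean of at least 5 CPM, were L1CAM (r = 0.9996), SREBF2 (r = 0.9993) and ITGB4 (r = 0.9991). The 6 libraries fall into the 2 groups, so these r describe the difference between groups first. L1CAM averaged 61.9 CPM in KO cells and 136 CPM in control cells, and ITGB4 152 CPM in KO cells and 495 CPM in control cells. For PLIN3, the member with the highest CPM, they were TMEM156 (r = 0.982), GSDME (r = 0.982) and GLUD1 (r = 0.971), with log2 fold changes of -0.17, -0.10 and -0.13. None of TMEM156, GSDME and GLUD1 passed in the fit on group, while TMEM156 and GLUD1 did with the block.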

How the data were processed

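The values are raw counts of reads per gene, deposited by the authors as 1 table for 6 libraries; per the labels' protocols the libraries were stranded and poly(A)-selected. The submitters' processing notes name build hg38, featureCounts (no version), STAR 2.7.9a, R 4.1.1 and FastQC 0.11.9. The counting annotation, strand setting and handling of multiply mapped reads were not given in the sources used here, so reads from overlapping or antisense genes may not be told apart.

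Groups follow the treatment label; the titles number the replicates. Genes were kept with filterByExpr (14704 of 61228), scaled with TMM factors and tested with edgeR 4.0.16 (glmQLFit, robust; glmQLFTest; group as the single term; Benjamini-Hochberg over all genes tested; threshold 0.05) in R 4.3.3 with limma 3.58.1; DESeq2 1.42.0 was an alternative. SE is the absolute log2 fold change over the square root of F. The procedure was tested on simulated data. The members and lists were chosen with earlier results of these data known, so the members have no p-value.

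Named are the 10 members, ETV1, ETV4 and ETV5, in each list up to 3 called genes per direction with the smallest adjusted p (if none is called, the 2 with the highest CPM), and for LPIN2 and PLIN3 the 3 genes with the most similar pattern; other names are list genes given for their role and chosen after their values were seen. Both groups carry replicate numbers 1 to 3. Over 10032 genes, deviations from the group means correlated between same-numbered libraries at 0.55, 0.45 and 0.83 (across genes, which are not independent), each over 0.1, and on that rule a shared number counts as a pair; this comes from the data, not the design. KO replicate 2 with control replicate 1 (0.59) and KO replicate 1 with control replicate 2 (0.58) correlated more closely than the same-numbered libraries 1 and 2, so the numbers 1 and 2 are not told apart, and replicate 3 alone stands apart by number. Deviations were taken from means of 3, so a shift of replicate 3 shared by both groups itself draws libraries 1 and 2 together. For numbers 1 and 2 the rule thus could not show pairing. The biological coefficient of variation was 10.5% without and 4.13% with the block. Lengths and exon overlaps are from GENCODE release 29 (GRCh38), and promoters from RefSeq (GRCh38.p14).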

Additional observations from a re-analysis of the deposited data

How the results depend on the processing

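The replicate block moved the genes called lower in KO cells to 2461, from 944, and those called higher to 2522, from 483; it gave 7 members lower in place of 3, and 20 other pathway genes lower and 12 higher in place of 10 and 4. Without both libraries numbered 3, the counts were 2023 lower and 1731 higher over all genes, 5 members lower, and 22 pathway genes lower and 7 higher. Leaving out 1 library at a time gave 436 to 964 genes lower and 136 to 777 higher, 2 to 4 members lower, 4 to 10 pathway genes lower and 1 to 5 higher. With the longest transcript as length, LPIN2 made up 49.5% of the lipin sum in KO cells and 52.8% in control cells, DGAT1 80.4% of the DGAT sum in KO cells and 78.4% in control cells, and PLIN3 60.1% of its sum with PLIN2 in KO cells and 59.5% in control cells. Signs changed for genes near 0: AGPAT2 was 0.0044 without both libraries numbered 3 and -0.11 to 0.091 with 1 library left out, DGAT1 was -0.0032 without the filter, -0.046 without both and -0.13 to 0.11 with 1 left out, and ETV5 was -0.018 to 0.043 with 1 left out. The causes were not tested. Fewer libraries also leave less power. LPIN1 and LPIN2 stayed past the threshold in all 11 alternatives, which draw on the same 6 libraries. As the members were chosen with this contrast known, that is a description only. With 114 counts at the lowest, HILPDA was the member most limited by depth.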
